A study of Mus musculus with 12 samples.

Results

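The 10 genes described here encode enzymes, a transporter and regulators of gluconeogenesis: Pck1, G6pc, Fbp1, Pcx, Slc37a4, Gpt, Got1, Ppargc1a, Crebbp and Creb3l3. They were chosen by name, and each was read from the 1 probe set annotated with its symbol. They are 10 of 30142 genes with a named probe set and 10 of the 18725 genes tested, those with a mean over the 12 arrays above 4.55 on the log2 scale, the median of all probe sets. Each of the 10 passed that filter, the dimmest being Ppargc1a with a mean of 7.01.

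RNA came from livers of C57BL/6 males aged 12 weeks and was measured on 12 Affymetrix whole-transcript arrays, which carry probes along the full length of each transcript. The samples formed 3 groups of 4: F3 males, who were great-grandsons of an obese Avy/a female, F2 males, who were grandsons of one, and control males, whose parents were lean controls. Avy, the viable yellow allele of agouti, makes its carriers obese. The labels do not give the agouti genotype of the males measured, the generation of each control male, or whether a sample was 1 animal. The p-values therefore refer to the spread among these samples, some of it possibly technical.

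Gluconeogenesis makes glucose from lactate, alanine and glycerol, and in the fasted animal it is a main source of blood glucose. In the liver it runs mostly in hepatocytes near the portal vein. Glucagon and glucocorticoids raise transcription of its enzymes and insulin lowers it. The question here is whether the genes of this pathway differed between descendants of obese females and controls.

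The labelled tissue was checked against hepatocyte markers. Alb, the serum albumin gene, stood between 13.22 and 13.39 on the 12 arrays, and of the 2 fat cell markers Adipoq had a mean under the filter while Plin1 passed it, at 5.30 in F3, 5.31 in F2 and 5.33 in control. The other hepatocyte markers ran from 9.56 (Asgr1) to 12.61 (Apoa1). The pancreas markers Cela1 (6.01 to 6.69) and Cpa1 (4.55 to 5.03) passed the filter. So did the kidney marker Slc34a1 (4.95 to 5.38), while the kidney markers Lrp2 and Umod did not. Passing the filter does not by itself show that a cell type was present. The arrays fell into 2 sets by their level of small nucleolar RNAs (snoRNAs, 337 genes), at the widest gap in that level. The higher set held 7 arrays (F3 replicates 1, 2 and 3, F2 replicates 1 and 4, control replicates 2 and 4) and the lower set 5. No label divides the arrays this way, and the lower set holds 1 F3 array.

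The sequence before the transcription start is shown for Pck1, an early step from lactate and alanine, and G6pc, the last step of the pathway. It is also shown for Slc37a4 and Ppargc1a, since these hold the same letters as Pck1. Each run is 250 bases, 5′ to 3′ on the gene's strand, from RefSeq on GRCm38.p6. Capitals mark ACGTCA, the core of a cAMP response element, to which CREB binds, or its reverse complement TGACGT. The windows are chr2:173152823-173153072 on the plus strand for Pck1, chr11:101367466-101367715 on the plus strand for G6pc, chr9:44396696-44396945 on the plus strand for Slc37a4 and chr5:51567726-51567975 on the minus strand for Ppargc1a.
Pck1: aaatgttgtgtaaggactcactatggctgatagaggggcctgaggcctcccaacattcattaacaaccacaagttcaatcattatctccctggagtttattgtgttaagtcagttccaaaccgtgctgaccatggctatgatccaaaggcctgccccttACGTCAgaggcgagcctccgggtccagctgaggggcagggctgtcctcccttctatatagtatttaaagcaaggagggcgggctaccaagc
G6pc: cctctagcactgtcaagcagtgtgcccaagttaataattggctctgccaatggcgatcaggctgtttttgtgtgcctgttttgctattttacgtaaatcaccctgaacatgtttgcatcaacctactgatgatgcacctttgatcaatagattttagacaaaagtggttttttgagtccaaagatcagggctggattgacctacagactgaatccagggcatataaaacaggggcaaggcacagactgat
Slc37a4: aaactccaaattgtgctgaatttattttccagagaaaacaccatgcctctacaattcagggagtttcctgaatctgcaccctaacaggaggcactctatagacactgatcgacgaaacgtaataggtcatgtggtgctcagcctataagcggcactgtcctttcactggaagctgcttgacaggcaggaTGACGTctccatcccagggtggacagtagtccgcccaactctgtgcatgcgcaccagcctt
Ppargc1a: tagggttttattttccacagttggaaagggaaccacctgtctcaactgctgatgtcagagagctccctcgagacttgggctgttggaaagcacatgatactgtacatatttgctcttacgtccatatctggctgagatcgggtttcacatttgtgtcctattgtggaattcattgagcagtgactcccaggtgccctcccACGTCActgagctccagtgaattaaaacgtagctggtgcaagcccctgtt

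The match began 91 bases before the start in Pck1, 61 bases before it in Slc37a4 and 50 bases before it in Ppargc1a. The G6pc window held no match to these letters. A RefSeq promoter was at hand for 9 of the 10 genes, 13 windows in all, of which 4 windows from 3 genes held the motif on either strand. Both matching Slc37a4 windows overlap and share 1 site. Of all 32851 RefSeq promoter windows of that length, 6.47% held it. The forkhead letters TGTTTAC or GTAAACA, as bound by FOXO1, were in 0 of the 13 windows, against 3.17% of all windows. A match is a string of letters and not a measured binding site. Only these exact letters were searched, so a window without a match may still hold a variant of either site.

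Pck1 encodes cytosolic phosphoenolpyruvate carboxykinase, which turns oxaloacetate into phosphoenolpyruvate. It stood at 11.42, 11.84, 11.57 and 11.74 in F3 replicates 1 to 4, at 11.93, 11.75, 12.00 and 11.69 in F2 replicates 1 to 4, and at 11.76, 11.48, 11.71 and 11.29 in control replicates 1 to 4. The F2 arrays all lay above the control mean, but control replicates 1 and 3 lay above F2 replicate 4, so the groups overlapped. The log2 difference was 0.28 for F2 minus control (SE 0.12, 95% interval 0.02 to 0.54), 1.21-fold. This did not pass the test over all genes (adjusted p = 0.9999, limma). Its unadjusted limma p was 0.0372, and the exact two-sided permutation test of 4 against 4 arrays gave p = 0.143, where 0.0286 is the smallest possible. The difference was 0.42 in the higher array set and 0.14 in the lower set, and it ran from 0.19 without control replicate 4 to 0.35 without control replicate 1. F3 males differed from control by 0.08 (95% interval −0.18 to 0.34) and from F2 males by −0.20 (95% interval −0.46 to 0.06), with none of these passing.

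Pcx, the mitochondrial pyruvate carboxylase that makes the oxaloacetate, varied little. It stood at 9.84, 9.70, 9.65 and 9.76 in F3 replicates 1 to 4, at 9.84, 9.81, 9.77 and 9.83 in F2 replicates 1 to 4, and at 9.69, 9.87, 9.66 and 9.62 in control replicates 1 to 4. The F2 arrays lay above every control array except control replicate 2, which was the highest of the 12. The difference was 0.10 for F2 minus control (SE 0.07), 0.03 for F3 minus control (SE 0.07) and −0.07 for F3 minus F2 (SE 0.07). Without control replicate 2 the F2 difference was 0.16. Fbp1, fructose-1,6-bisphosphatase, which removes a phosphate in the middle of the pathway, ranged from 11.17 to 11.42 in F3, from 11.19 to 11.37 in F2 and from 11.19 to 11.36 in control arrays. Its 3 differences lay between −0.01 and 0.05, each with SE 0.07.

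G6pc encodes the catalytic subunit of glucose-6-phosphatase, which releases free glucose in the endoplasmic reticulum. It stood at 11.26, 11.06, 12.04 and 11.22 in F3 replicates 1 to 4, at 11.55, 11.20, 11.11 and 11.42 in F2 replicates 1 to 4, and at 11.42, 11.34, 11.18 and 11.80 in control replicates 1 to 4. F3 replicate 3 was the highest array and F3 replicate 2 the lowest, so the F3 group held the whole range of 0.99, or 1.98-fold. The difference was −0.11 for F2 minus control (95% interval −0.54 to 0.32) and −0.04 for F3 minus control (95% interval −0.47 to 0.39). For F3 minus F2 it was 0.08 (95% interval −0.35 to 0.51), and −0.14 without F3 replicate 3.

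Slc37a4 encodes the transporter that carries glucose-6-phosphate to that enzyme. It stood at 9.75, 9.48, 9.70 and 9.67 in F3 replicates 1 to 4, at 9.76, 9.36, 9.81 and 9.30 in F2 replicates 1 to 4, and at 10.05, 9.29, 9.74 and 9.61 in control replicates 1 to 4. Control replicates 1 and 2 were the highest and lowest of the 12 arrays, so both descendant groups lay inside the control range. The differences were −0.11 for F2 minus control, −0.02 for F3 minus control and 0.09 for F3 minus F2, each with SE 0.15. Within the higher array set F2 minus control was 0.08 and F3 minus control 0.19, and within the lower set they were −0.31 and −0.22.

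Gpt and Got1 encode the cytosolic alanine and aspartate aminotransferases, which feed amino acid carbon into the pathway. Gpt stood at 8.34, 8.13, 7.95 and 8.09 in F3 replicates 1 to 4, at 8.23, 7.90, 8.25 and 8.02 in F2 replicates 1 to 4, and at 8.26, 7.93, 8.29 and 8.32 in control replicates 1 to 4. The difference was −0.10 for F2 minus control, −0.07 for F3 minus control and 0.03 for F3 minus F2, each with SE 0.11. Control replicate 2 lay well below the other 3 control arrays, and without it F2 minus control was −0.19 and F3 minus control −0.16. F2 minus control was −0.035 without F2 replicate 2, and F3 minus control −0.014 without F3 replicate 3.

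Got1, whose product also serves the malate-aspartate shuttle, had the widest spread of the 10 genes. It stood at 10.001, 9.88, 9.79 and 9.57 in F3 replicates 1 to 4, at 9.89, 10.27, 10.29 and 9.78 in F2 replicates 1 to 4, and at 10.55, 9.31, 10.05 and 10.21 in control replicates 1 to 4. The controls held both ends, a range of 1.23 or 2.35-fold. The difference was −0.22 for F3 minus control (95% interval −0.69 to 0.25), 0.03 for F2 minus control (95% interval −0.44 to 0.50) and −0.25 for F3 minus F2 (95% interval −0.72 to 0.22). For F3 minus control it ran from −0.46 without control replicate 2 to −0.05 without control replicate 1, and it was 0.13 in the higher array set and −0.73 in the lower set, which holds 1 F3 array. For F3 minus F2 the corresponding values were 0.06 and −0.71.

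Among the regulators, Ppargc1a encodes PGC-1α, a coactivator induced by fasting that raises transcription of Pck1 and G6pc. It stood at 7.02, 7.18, 6.80 and 7.0 in F3 replicates 1 to 4, at 6.97, 7.11, 7.0 and 6.87 in F2 replicates 1 to 4, and at 7.36, 7.33, 6.66 and 6.79 in control replicates 1 to 4. The controls fell into a higher and a lower pair, and every F3 and F2 array lay between the pairs. The SD was 0.16 in F3, 0.10 in F2 and 0.36 in control (n = 4 each). The differences were −0.05 for F2 minus control, −0.04 for F3 minus control and 0.0089 for F3 minus F2, each with SE 0.15.

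Crebbp encodes CBP, an acetyltransferase that CREB recruits to its targets. It ranged from 8.97 to 9.08 in F3, from 9.06 to 9.13 in F2 and from 9.01 to 9.18 in control arrays, and it was the steadiest of the 10 genes, with a smaller SD over the 12 arrays (0.06) than all but 3.15% of the genes tested. Its differences were −0.05 for F3 minus control, −0.0016 for F2 minus control and −0.05 for F3 minus F2, each with SE 0.06. Creb3l3 encodes CREBH, a liver transcription factor released from the endoplasmic reticulum membrane. It ranged from 8.87 to 9.16 in F3, from 8.88 to 9.28 in F2 and from 8.86 to 9.08 in control arrays. Its differences were 0.03 for F3 minus control, 0.08 for F2 minus control and −0.05 for F3 minus F2, each with SE 0.09. For F2 minus control it ran from 0.015 without F2 replicate 4 to 0.15 without F2 replicate 2, and it was 0.18 in the higher array set and −0.012 in the lower.

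**Figure D1:**
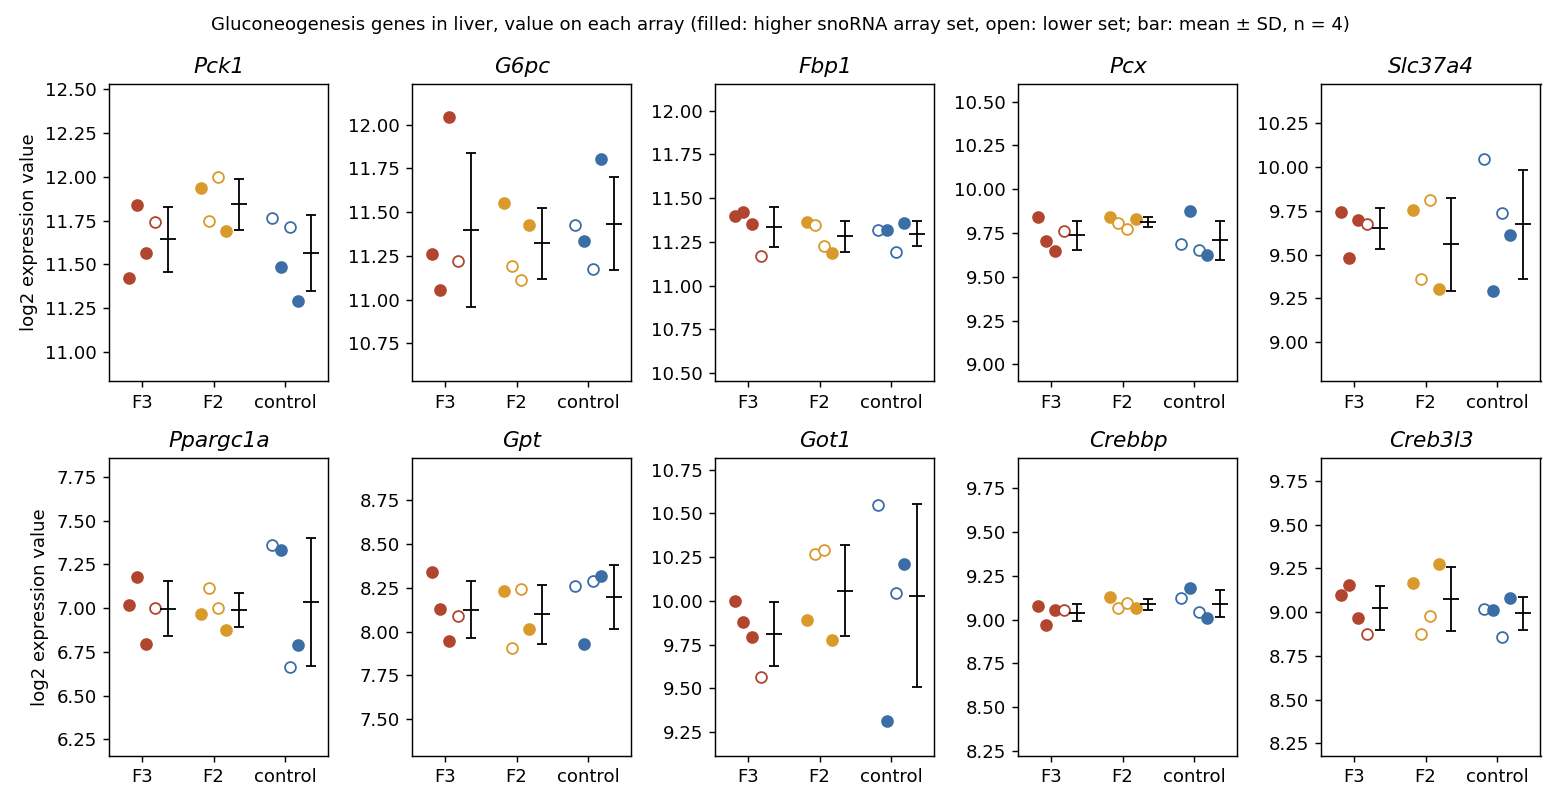
Log2 expression value of each gene on each array (y axis, the same span in every panel) in F3, F2 and control males (x axis), with mean ± SD beside the 4 points of a group. Filled points are arrays of the higher snoRNA set and open points arrays of the lower set. The F2 points of Pck1 lie highest but overlap the controls, and the control points of Got1 run from 9.31 to 10.55.

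In none of the 3 comparisons did a member pass the test, and in none did the arrays of the groups separate for any member. With limma, 0 of 10 members passed an adjusted p of 0.05 for F2 minus control, F3 minus control or F3 minus F2, and over all 18725 genes the share was 0% in each comparison. An unadjusted limma p under 0.05 was reached by 1 of 10 members (Pck1) for F2 minus control, against 0.919% of all genes, by 0 of 10 for F3 minus control, against 2.93%, and by 0 of 10 for F3 minus F2, against 2.37%. Arrays of the groups did not overlap for 0 of 10 members in each comparison, against 0.705% of all genes for F2 minus control, 1.63% for F3 minus control and 2.46% for F3 minus F2.

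The members' differences lay on both sides of 0. For F2 minus control 4 members were above 0 and 6 below, with a median of −0.0075 beside −0.01 over all genes tested. For F3 minus control 4 were above 0 and 6 below, with a median of −0.03 beside −0.01. For F3 minus F2 5 were above and 5 below, with a median of −0.02 beside 0.0025. The comparisons share groups, so they are not independent of each other. Within the higher array set the members ran from −0.14 (Ppargc1a) to 0.42 (Pck1) for F2 minus control, from −0.11 (G6pc) to 0.22 (Pck1) for F3 minus control and from −0.20 (Pck1) to 0.11 (Fbp1) for F3 minus F2. Within the lower set they ran from −0.31 (Slc37a4) to 0.14 (Pck1), from −0.73 (Got1) to 0.088 (Pcx) and from −0.71 (Got1) to 0.086 (Slc37a4) in the same order.

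The intervals say how large a difference the arrays would still allow. For F2 minus control the 95% interval lay within 1.5-fold either way for 10 of 10 members, against 95.2% of all genes. For F3 minus control it lay within 1.5-fold for 9 of 10, against 94.1%, and for F3 minus F2 for 9 of 10, against 94%. The exception in both was Got1, whose lower limits of −0.69 and −0.72 pass 1.5-fold but not 2-fold.

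**Figure D2:**
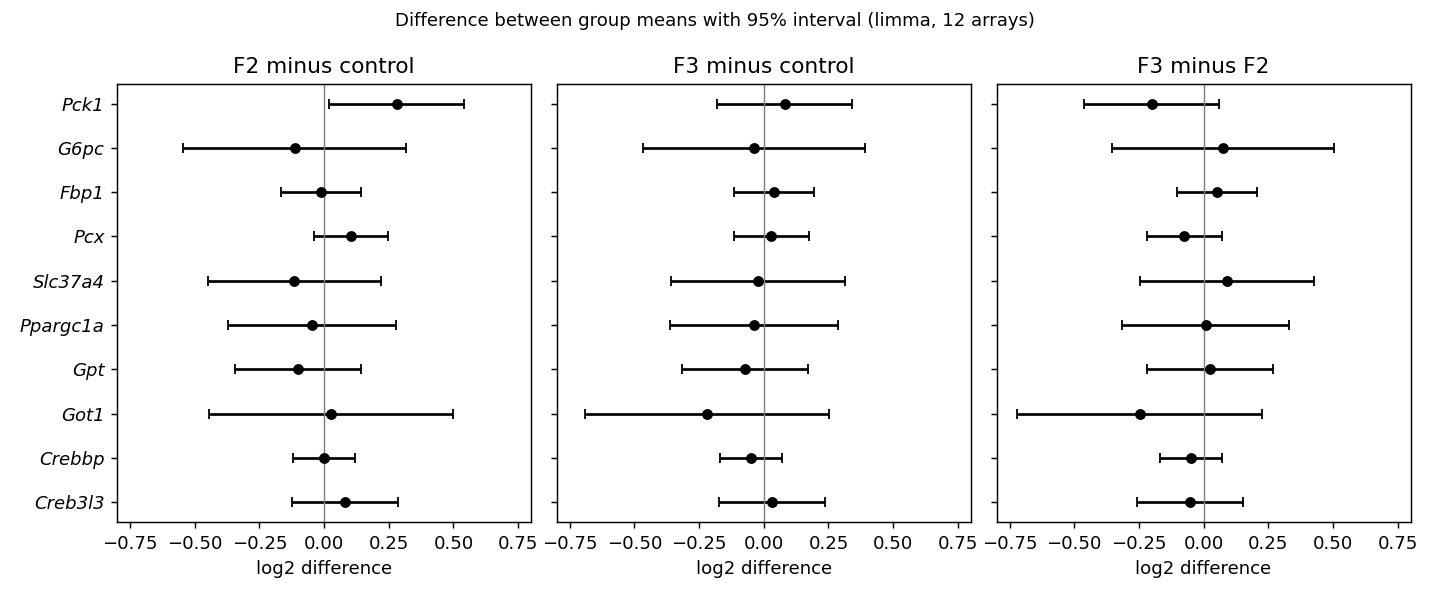
Log2 difference between group means (x axis) for each gene (y axis) in F2 minus control, F3 minus control and F3 minus F2, with 95% intervals from limma over 12 arrays. The interval of Pck1 for F2 minus control, 0.02 to 0.54, is the single one of the 30 that leaves out 0, without adjustment for the genes tested.

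The members differed widely in how much they varied over the 12 arrays. The SD of Got1 (0.34) was above that of 95.6% of the genes tested, that of G6pc (0.29) above 93.9%, Slc37a4 (0.23) above 89.2%, Ppargc1a (0.21) above 87.5%, Pck1 (0.21) above 86.5% and Gpt (0.16) above 73.1%. Creb3l3 was near the middle at 55.2%, while Fbp1 and Pcx, both at 0.09, were above 18.8% and 18.7%. This spread lay largely inside the groups: the SD within groups was 0.35 for Got1, 0.32 for G6pc and 0.25 for Slc37a4.

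The members did not move as 1 block from array to array. Of the 45 pairs of members, 23 had a Pearson r above 0 over the 12 arrays and 22 below, with a median of 0.03. After Benjamini-Hochberg adjustment over the 45 pairs, 0 passed 0.05 by a permutation test with 100000 resamples (smallest adjusted p = 0.553 for Pearson's r and 0.595 for Spearman's rho), while 2 had an unadjusted p under 0.05 for Pearson's r. These were Slc37a4 with Gpt (r = 0.70, permutation p = 0.0123, adjusted p = 0.553; rho = 0.63, permutation p = 0.0312, adjusted p = 0.595) and Pcx with Crebbp (r = 0.61, permutation p = 0.0346, adjusted p = 0.778; rho = 0.69, permutation p = 0.0153, adjusted p = 0.595). Without the 2 arrays farthest from the median of the first gene these r were 0.57 and 0.53, and within the 7 arrays of the higher set 0.62 and 0.76. Pck1 and G6pc, the enzymes of an early and of the last step, had r = −0.47 and rho = −0.45 (permutation p = 0.119 and 0.14, adjusted p = 0.94 and 0.884). The control array with the lowest Pck1 value, replicate 4, had the highest G6pc value of the controls.

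**Figure D3:**
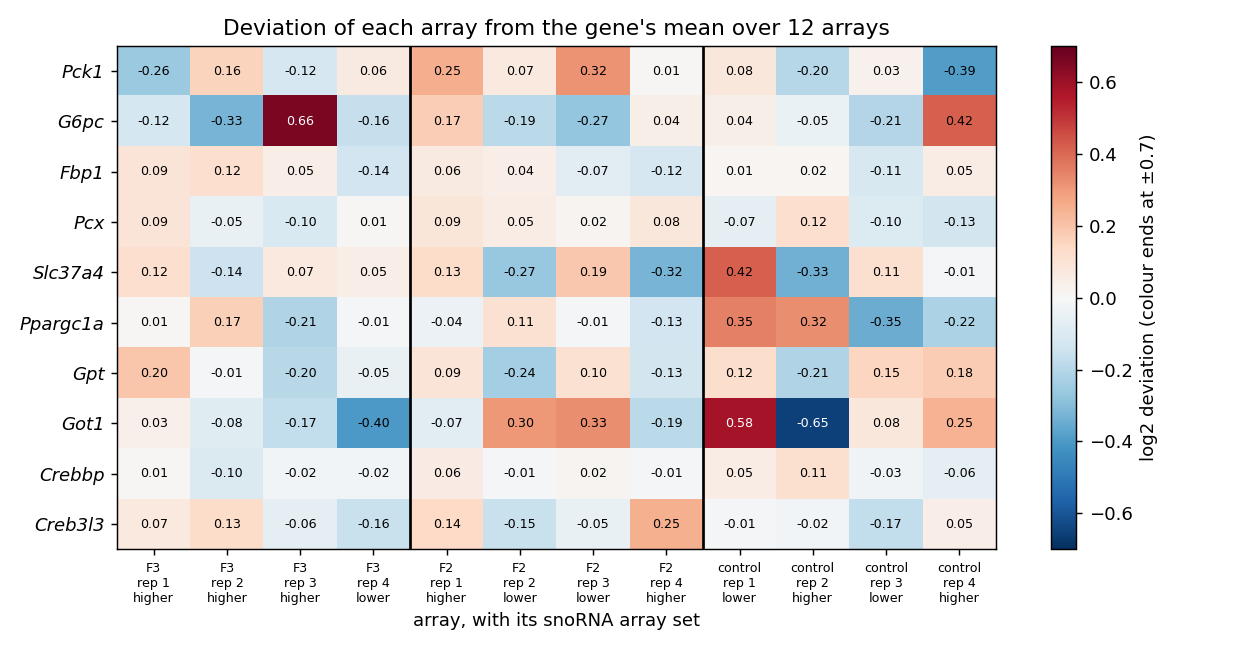
Log2 deviation of each array (x axis, grouped as F3, F2 and control, with its snoRNA set) from the gene's mean over 12 arrays, for each gene (y axis). Red is above and blue below the mean. The widest deviations belong to single arrays, among them 0.66 for G6pc in F3 replicate 3 and −0.65 for Got1 in control replicate 2.

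Some arrays stood at the ends for several members. Control replicate 1 was the highest array for Got1, Slc37a4 and Ppargc1a. Control replicate 2 was the lowest for Got1 and Slc37a4 and the highest for Pcx and Crebbp. F3 replicate 2 was the lowest for G6pc and Crebbp, control replicate 3 for Ppargc1a and Creb3l3, and control replicate 4 for Pck1 and Pcx. Control replicate 2 was also the lowest of the 12 arrays for 22.4% of all genes tested, and control replicate 3 for 19.1%, against 3.59% to 8.86% for the other arrays. For control replicates 2 and 3 the 2 of 10 members are near these shares. For F3 replicate 2 (8.86%) and control replicate 4 (3.59%) they are above them. The share of all genes highest on each array was not computed. Among the cell type markers tested, control replicate 2 was lowest for 3 of 4 of periportal hepatocytes (Cps1 at 12.19, Hal at 9.81 and Cyp2f2 at 12.36) and for 8 of 34 others, which mark different cell types. The linear sum of the 4 periportal markers ranged from 14836 to 16438 in F3, from 14123 to 16288 in F2 and from 13087 to 16683 in control arrays. In whole liver, fewer cells of a type and less RNA per cell cannot be told apart, and the part of cell composition in the values of that array was not tested. Between the snoRNA sets, Got1 averaged 9.84 ± 0.27 (SD, n = 7) in the higher and 10.14 ± 0.37 (SD, n = 5) in the lower set, and G6pc 11.50 ± 0.34 (SD, n = 7) and 11.23 ± 0.12 (SD, n = 5). None of the 10 genes separated the sets without overlap, but the share of all genes that did was not computed.

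Igfbp1, a liver gene that insulin represses, was singled out after its values were seen. It stood at 7.81, 7.22, 7.51 and 6.63 in F3 replicates 1 to 4, at 7.08, 7.73, 7.98 and 7.32 in F2 replicates 1 to 4, and at 9.32, 6.40, 7.22 and 7.40 in control replicates 1 to 4. Its highest array, control replicate 1, and its lowest, control replicate 2, were also the highest and lowest for Got1, and F3 replicate 4 was second lowest for both genes. The range was 2.93, or 7.61-fold, and the group means were 7.29 in F3, 7.53 in F2 and 7.59 in control. The difference was −0.29 for F3 minus control and −0.06 for F2 minus control, each with SE 0.49, and neither passed the test. Without control replicate 1 these were 0.29 and 0.52. F3 minus control was 0.61 in the higher array set and −1.64 in the lower. Slc37a4 had the same highest and lowest arrays as Got1. Control replicate 2 was the lowest array for 22.4% of all genes tested. Among the other insulin- and fasting-responsive genes tested, control replicate 2 was highest for Pdk4 (7.13) and Fgf21 (5.90). It was second highest for Cpt1a (11.49), second lowest for Irs2 (8.55) and in between for Ppara (9.98). Feeding state at collection is not given in the labels, and its part in these values was not tested.

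**Figure D4:**
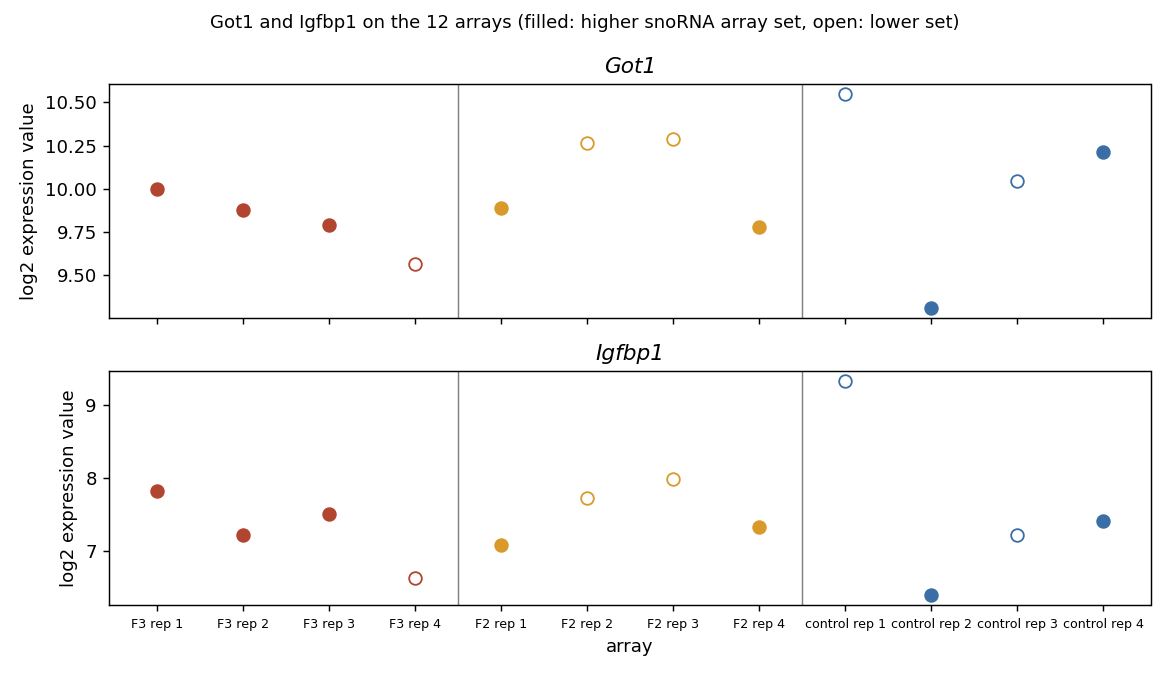
Log2 expression value (y axes, a separate scale for each gene) of Got1 and Igfbp1 on the 12 arrays (x axis), grouped as F3, F2 and control, with filled points for the higher snoRNA set. Control replicate 1 is the highest and control replicate 2 the lowest array in both panels.

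The other genes of the pathway gave no passing gene either. Of 65 further genes on 6 lists, 52 were tested, and 0 passed an adjusted p of 0.05 in either direction in any of the 3 comparisons with limma. Enzymes shared with glycolysis (7 of 10 tested) had a median of −0.07 for F2 minus control, 0.0038 for F3 minus control and −0.04 for F3 minus F2. Genes of substrate supply (9 of 14 tested), such as transporters and amino acid enzymes, had medians of −0.03, −0.05 and −0.02 in the same order. Regulators (17 of 18 tested) had medians of 0.02, −0.05 and −0.05, and paralogues of the 10 genes (10 of 12 tested) −0.03, −0.05 and −0.07. Glycolytic counterparts (3 of 5 tested), which catalyse or control the opposite steps, had medians of −0.15, 0.02 and 0.17. Insulin- and fasting-responsive genes (6 of 6 tested) had medians of −0.03, −0.10 and −0.13. The medians over all genes tested were −0.01, −0.01 and 0.0025.

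For F2 minus control the lowest p on these lists belonged to Ldha, Gckr, Cpt1a and Pklr, none passing. Ldha, lactate dehydrogenase A, stood at 9.16, 9.46, 9.23 and 9.23 in F2 and at 9.06, 9.18, 8.93 and 8.86 in control arrays, a difference of 0.26 (SE 0.09). The groups overlapped at F2 replicate 1 and control replicate 2. Gckr, the glucokinase regulatory protein, stood at 9.56, 9.31, 9.49 and 9.49 in F2 and at 9.59, 9.63, 9.61 and 9.61 in control arrays, without overlap, a difference of −0.15 (SE 0.06), −0.10 without F2 replicate 2, and −0.10 in the higher and −0.20 in the lower array set. Pklr, liver pyruvate kinase, which runs glycolysis against the Pck1 step, differed by −0.34 (SE 0.17). Cpt1a, which admits fatty acids to the mitochondrion, differed by 0.25 (SE 0.12).

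For F3 minus control the lowest p belonged to Mdh2, Pprc1, Pgam1 and Nr4a1, none passing. Mdh2, mitochondrial malate dehydrogenase, stood at 9.60, 9.54, 9.57 and 9.86 in F3 and at 10.02, 9.90, 9.92 and 9.68 in control arrays, a difference of −0.24 (SE 0.09). Here F3 replicate 4 lay among the controls. Pgam1, phosphoglycerate mutase, differed by −0.16 (SE 0.06), with −0.23 in the higher array set and 0.03 in the lower. Nr4a1, an orphan nuclear receptor induced by cAMP, stood at 5.87, 6.15, 6.25 and 6.04 in F3 and at 6.28, 6.33, 6.40 and 6.40 in control arrays, without overlap, a difference of −0.27 (SE 0.12). Pprc1, a relative of Ppargc1a, differed by −0.17 (SE 0.07), and by −0.11 without F3 replicate 2. Pprc1 and Got2, the mitochondrial partner of Got1 (−0.10, SE 0.06), also did not overlap. That makes 3 non-overlapping genes of the 52, beside 1.63% of all genes. For F2 minus control it was 1 of the 52 (Gckr), beside 0.705% of all genes. For F3 minus F2 it was 1 of the 52 (Cpt1a), beside 2.46%.

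For F3 minus F2 the lowest p belonged to Cpt1a, Pklr, Gckr and Nr4a1, none passing. Cpt1a stood at 11.21, 11.29, 10.95 and 10.87 in F3 and at 11.40, 11.40, 11.32 and 11.53 in F2 arrays, without overlap, a difference of −0.33 (SE 0.12). Pklr stood at 11.03, 10.72, 11.26 and 10.54 in F3 and at 10.74, 10.40, 10.23 and 10.41 in F2 arrays, overlapping, a difference of 0.45 (SE 0.17), with 0.43 in the higher array set and 0.23 in the lower. Gckr differed by 0.17 (SE 0.06) and Nr4a1 by −0.25 (SE 0.12), with −0.12 for Nr4a1 without F2 replicate 4.

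**Figure D5:**
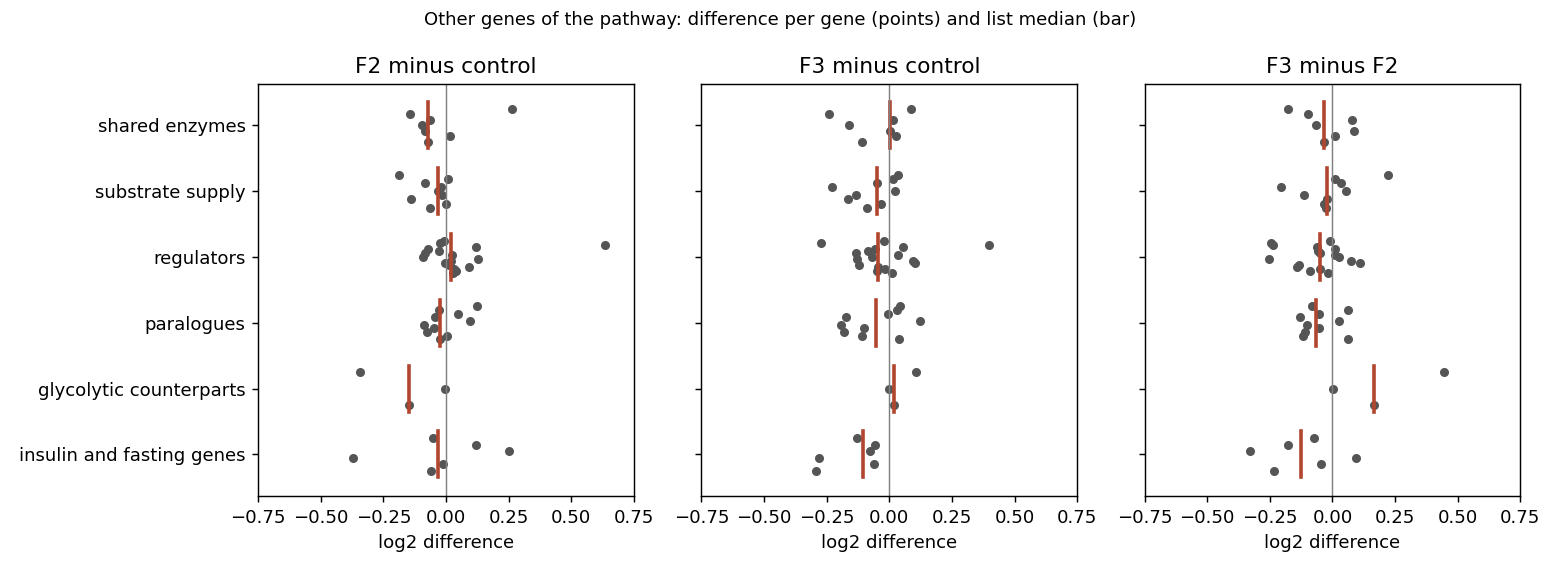
Log2 difference of each of the 52 other pathway genes tested (points, x axis) by list (y axis) in F2 minus control, F3 minus control and F3 minus F2, with a bar at the list's median. The point farthest from 0, at 0.63 for F2 minus control, is Onecut1.

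Onecut1, which encodes the hepatocyte factor HNF6, was also singled out after its values were seen. It had the widest range of the 52 genes, 3.24 or 9.46-fold. It stood at 9.78, 9.91, 7.99 and 7.45 in F3 replicates 1 to 4, at 7.83, 9.12, 8.83 and 10.28 in F2 replicates 1 to 4, and at 9.44, 7.67, 7.04 and 9.38 in control replicates 1 to 4. Each group held high and low arrays, and the difference of 0.63 for F2 minus control had a 95% interval of −0.89 to 2.16. It was 0.19 without control replicate 3 and 1.03 without F2 replicate 1. For F3 minus control the difference was 0.40, with 0.70 in the higher array set and −0.79 in the lower.

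The genes whose array pattern was most like that of Pck1, by Pearson r over the 12 arrays among 14272 tested genes without predicted or RIKEN names, were Plekhf1 (r = 0.85, rho = 0.83), Cebpd (r = 0.81, rho = 0.87) and Pxmp4 (r = 0.81, rho = 0.76). Without the 2 arrays farthest from the Pck1 median, F3 replicate 1 and control replicate 4, these r were 0.68, 0.68 and 0.61. The genes most like G6pc were Ctps (r = 0.92, rho = 0.93), Gopc (r = 0.89, rho = 0.78) and Ttc23 (r = 0.89, rho = 0.80). Without F3 replicate 3 and control replicate 4, the highest G6pc arrays, these were 0.81, 0.67 and 0.59. These values describe the likeness of 12 arrays and were picked as the highest of many, so no p-value is given. Plekhf1, Cebpd and Pxmp4 had means of 6.96, 5.29 and 9.87 and log2 ranges of 0.51, 0.86 and 0.32. Ctps, Gopc and Ttc23 had means of 5.33, 6.69 and 7.36 and log2 ranges of 0.50, 0.34 and 0.68. Cebpd and Ctps were thus dim, and Pxmp4 and Gopc varied little.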

How the data were processed

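Liver RNA of 12 samples, 3 groups of 4, was measured on 1 array each, from 100 ng of total RNA per the labels. The authors deposited 1 log2 expression value per probe set and array, for which the submitters' processing notes name Affymetrix Expression Console. Its version, background correction, normalization and summarization settings were not given in the sources used here. That values are log2 was inferred from their span (0.73 to 13.64). Array medians lay between 4.49 and 4.60.

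Probe sets were named from the platform annotation, with symbols updated through Entrez identifiers in a RefSeq table of GRCm38.p6. The brightest probe set per gene was used, and genes with a mean above 4.55 were tested. One limma 3.58.1 fit in R 4.3.3 covered all 12 arrays, with 1 mean per group, no covariate and Benjamini-Hochberg adjustment over 18725 genes. It was tested on simulated data with independent noise for each gene and planted differences larger than that of any member. That test does not cover differences as small as the members' or variation shared between genes. The number of arrays limits the precision. Exact and permutation tests used SciPy 1.17.1 and NumPy.

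All 10 members are named, with the 4 list genes of lowest p per comparison and the 3 genes most like Pck1 and G6pc. Igfbp1, Onecut1, Got2, Pdk4, Nr0b2, Fgf21, Irs2 and Ppara were named after their values were seen. The members and lists were chosen with earlier results of these data known. List genes that were not tested are not analysed here. Alternatives covered scaling, filter, probe sets, variance model, array weights, arrays fitted, replicate block, array sets, single arrays and threshold.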

Additional observations from a re-analysis of the deposited data

Results flagged for a closer look

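Values were examined in each of the 3 groups, 4 arrays at a time, for a single array far from the other 3. For the 18 genes named by rule, 54 sets of 4 arrays, the gap as a share of the range exceeded Dixon's 95% critical value for 4 samples in 2, Gpt and Pprc1. Chance gives about 1 in 20 for genes chosen without their values. The list genes among the 18, Pprc1 included, were picked by p in these same arrays, so that rate may not hold for them. For Igfbp1, Onecut1, Got2 and Pdk4, singled out after their values were seen, the critical value was exceeded in 2, Pdk4 and Got2. The rate does not apply to these either. Nr0b2, Fgf21, Irs2 and Ppara were not among the genes examined. Gpt was low in control replicate 2, at 7.93, against 8.26 to 8.32 in the other controls. Pdk4, which encodes a kinase that shuts pyruvate dehydrogenase in fasting, was high in the same array, at 7.13, against 5.65 to 5.76 in the other controls. Without that array the Pdk4 difference was −0.02 for F2 minus control, against −0.37 with it, and 0.08 for F3 minus control, against −0.28 with it. F3 replicate 2 was low for Pprc1, at 5.61, against 5.82 to 5.85 in the other F3 arrays. The same array was low for Got2, at 11.27, against 11.36 to 11.37 in the other F3 arrays.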

How the results depend on the processing

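No member passed under any of the alternatives (smallest adjusted p of a member 0.667, limma), and limma called 0 genes in each comparison under every alternative except 1. That was the lower array set alone, with 5 arrays of which 1 is F3: 2 genes passed for F3 minus control (Obp2a and Treh) and 3 for F3 minus F2 (Obp2a, Treh and Wfdc12), named after their values were seen and none a member. With the replicate number as a block limma called 0 genes in each comparison. Same-numbered arrays of different groups deviated from their group means with r between −0.506 and 0.322 across genes, which showed no pairing by number. Arrays with different numbers reached 0.547 (control replicate 2 with F2 replicate 4, both of the higher set). A weaker pairing could not be seen beside such values. Scaling moved the median of all genes by at most 0.02. Members' differences turned in sign in 34 of 360 values under the 12 settings that keep or split the arrays, and in 34 of 360 values when 1 array was left out. Many of these values could not turn. The filters, mean over probe sets, variance model, fit of only the compared groups and replicate block leave a member's difference unchanged. So does leaving out an array of the group not compared. Of the 30 member differences, 16 turned in sign for at least 1 array left out. The cause was not tested.

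With quantile normalization F3 minus control was −0.033 for Creb3l3, −0.043 for Fbp1, −0.0024 for Pck1 and −0.027 for Pcx, and F3 minus F2 was −0.035 for Fbp1, −0.0062 for Gpt and −0.0055 for Ppargc1a. With centring on array medians F2 minus control was 0.015 for Crebbp and 0.0035 for Fbp1, and F3 minus F2 was −0.010 for Ppargc1a. With array weights F2 minus control was 0.043 for Crebbp and −0.21 for Got1, F3 minus control was −0.013 for Creb3l3 and 0.013 for Ppargc1a, and F3 minus F2 was −0.036 for Gpt. With the array set as a block F3 minus control was −0.019 for Creb3l3 and 0.024 for Slc37a4. In the higher set alone F2 minus control was 0.0035 for Crebbp, 0.00065 for Gpt and 0.076 for Slc37a4, F3 minus control was 0.13 for Got1, 0.014 for Gpt, −0.016 for Pcx and 0.19 for Slc37a4, and F3 minus F2 was −0.034 for G6pc and 0.056 for Got1. In the lower set alone F2 minus control was −0.012 for Creb3l3, 0.035 for Fbp1, −0.018 for Got1 and 0.045 for Ppargc1a, F3 minus control was −0.066 for Creb3l3 and −0.086 for Fbp1, and F3 minus F2 was −0.12 for Fbp1 and −0.055 for Ppargc1a.

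Leaving out each array in turn, F2 minus control ran from −0.20 to 0.0082 for G6pc, from −0.048 to 0.019 for Fbp1, from −0.24 to 0.0096 for Slc37a4, from −0.17 to 0.062 for Ppargc1a, from −0.21 to 0.20 for Got1 and from −0.029 to 0.029 for Crebbp. F3 minus control ran from −0.0092 to 0.15 for Pck1, from −0.25 to 0.084 for G6pc, from −0.0057 to 0.084 for Pcx, from −0.15 to 0.10 for Slc37a4, from −0.16 to 0.071 for Ppargc1a and from −0.014 to 0.081 for Creb3l3. F3 minus F2 ran from −0.14 to 0.19 for G6pc, from −0.051 to 0.076 for Ppargc1a, from −0.044 to 0.086 for Gpt and from −0.12 to 0.016 for Creb3l3. Among members that kept their sign, F2 minus control ran from 0.19 to 0.35 for Pck1, 0.074 to 0.16 for Pcx, −0.19 to −0.035 for Gpt and 0.015 to 0.15 for Creb3l3. F3 minus control ran from 0.0032 to 0.093 for Fbp1, −0.16 to −0.014 for Gpt, −0.46 to −0.047 for Got1 and −0.078 to −0.020 for Crebbp. F3 minus F2 ran from −0.26 to −0.13 for Pck1, 0.019 to 0.11 for Fbp1, −0.11 to −0.044 for Pcx, 0.0065 to 0.18 for Slc37a4, −0.34 to −0.17 for Got1 and −0.063 to −0.026 for Crebbp.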

Other observations

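Nr0b2, which encodes SHP, a nuclear receptor that represses bile acid and gluconeogenic genes, stood at 8.42, 7.29, 7.77 and 9.10 in F3 replicates 1 to 4, at 8.08, 8.32, 8.64 and 7.79 in F2 replicates 1 to 4, and at 8.30, 7.75, 8.72 and 7.59 in control replicates 1 to 4. F3 arrays held both its lowest and its highest value, a range of 1.81 or 3.51-fold, with group means of 8.15 in F3, 8.21 in F2 and 8.09 in control. Pdk4, one of the fasting-responsive genes, stood between 5.48 and 5.86 on every array other than control replicate 2. Nr0b2 was singled out after its values were seen.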
